A study of Homo sapiens with 6 samples.

Results

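MALAT1, NEAT1, NORAD, KCNQ1OT1, MIAT and OIP5-AS1 are 6 long non-coding RNAs among the 21857 genes of the tables. Their rows were taken by gene symbol, and they were chosen by measured values, since MALAT1 and NEAT1 stood far higher after treatment in these same libraries. All comparisons of treated with control cells below are therefore descriptions for the 6 RNAs and carry no test. The cells were MV4;11, an established cell line from a human acute myeloid leukemia whose labelled genotype is FLT3-ITD (a duplicated stretch within the FLT3 receptor gene) and MLL-AF4 (a gene fusion). The 3 control libraries came from cells kept without FKA (flavokawain A, a chalcone of the kava plant), and the 3 FKA libraries from cells given 10 µg/ml FKA for 48 h. Each batch label, 1 to 3, equals the replicate number and holds 1 control and 1 FKA library, and the labels name no separate cultures, so any p-value below measures only the spread between these libraries.

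MALAT1 and NEAT1 are among the most abundant long RNAs of many mammalian cells, and both are kept in the nucleus. MALAT1 gathers at nuclear speckles, which store splicing factors, while the long form of NEAT1 is the scaffold of paraspeckles, bodies that hold RNA-binding proteins such as SFPQ and NONO. NORAD binds and sequesters Pumilio proteins such as PUM2, which repress mRNAs, and much of it lies in the cytoplasm. KCNQ1OT1 is transcribed from the paternal allele of an imprinted domain and silences genes there, MIAT forms nuclear bodies and binds the splicing factor SF1, and OIP5-AS1 (the counterpart of cyrano in other vertebrates) carries a site of near-complete pairing to the microRNA miR-7.

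MALAT1 and NEAT1 lack an ordinary poly(A) tail at the processed end of their long forms: RNase P cleaves the nascent RNA, and a triple helix of U-rich and A-rich tracts closes the end. These ends are shown because they hold the tracts that close the mature RNAs. How well the libraries captured RNAs without a poly(A) tail was not measured. The ends were taken from GENCODE v29 transcripts, MALAT1-202 (bases 8268 to 8355 of 8708) and NEAT1-202 (bases 22656 to 22743 of 22743). Each stretch is 88 bases long, and capitals mark the U-rich tracts (written with T) and the A-rich tract.
MALAT1 end: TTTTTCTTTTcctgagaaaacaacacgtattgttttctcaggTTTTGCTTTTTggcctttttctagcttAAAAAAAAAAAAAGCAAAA
NEAT1 end: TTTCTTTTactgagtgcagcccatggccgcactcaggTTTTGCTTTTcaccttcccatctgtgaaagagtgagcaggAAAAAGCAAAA
Both ends hold 2 U-rich tracts, and the A-rich tract spans 19 letters in MALAT1 and 11 in NEAT1.

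NORAD was searched for the Pumilio element TGTANATA, the letters that Pumilio proteins bind, on the transcript strand of NORAD-201. The search found 15 elements in 5339 bases, or 2.81 per kb. Among 212 long non-coding genes with a transcript of at least 5000 bases the median was 0 per kb, and 2 of them held more elements than NORAD. NEAT1-202 held 6 elements, OIP5-AS1-201 held 1 and MALAT1-202 held 0. The following 4 of the 15 sites, with 10 bases on each side and the element in capitals, show the forms that it takes in NORAD.
NORAD element 1: ggaaggcctgTGTATATAatatgaaaaa
NORAD element 3: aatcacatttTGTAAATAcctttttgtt
NORAD element 5: gtgtatatagTGTACATAaaggacagac
NORAD element 11: aaccctactgTGTATATAgcggacaaac
They lie at bases 761 to 768, 1241 to 1248, 1451 to 1458 and 2972 to 2979 of NORAD-201.

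OIP5-AS1 was searched for the complement of the miR-7 seed, bases 2 to 8 of the microRNA. OIP5-AS1-201, of 8829 bases, held 3 matches, and MALAT1-202, NEAT1-202 and NORAD-201 held 0. The match at bases 2887 to 2893 stands apart because 14 further bases upstream of it also pair with miR-7. The mature miR-7-5p (RefSeq) is printed with its seed in capitals, and the site (GENCODE v29) with the paired bases in capitals.
hsa-miR-7-5p: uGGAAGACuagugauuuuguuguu
OIP5-AS1 site: agAACAACAAAATCACcaatGTCTTCCat

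Of the 6 RNAs, 5 passed the filter on low counts, as did 13531 genes in all, and MIAT did not. Against control, MALAT1, NEAT1 and NORAD were higher in FKA-treated cells and OIP5-AS1 was lower, beyond the threshold of an adjusted p of 0.05 in the fit across all genes, and KCNQ1OT1 was within it. Those 4 of 5 stand beside 59.8% of all tested genes past the same threshold, 29.3% higher and 30.5% lower. The control and FKA values did not overlap in the same 4 RNAs, beside 67.3% of all tested genes. Since the choice of RNAs used this comparison, nothing is read from these counts. In such bulk samples, a change in the make-up of the cells and a change in RNA per cell cannot be told apart.

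MALAT1, the speckle RNA, had the largest difference of the 6. Listed by replicate, 1 to 3, the controls held 2719, 2178 and 1626 reads of it and the treated libraries held 17354, 19661 and 24158. Its level per length, in FPKM (fragments per kilobase of transcript, scaled to a common library total), was 9.17, 6.82 and 5.15 in the controls and 64.7, 74.7 and 82.9 with FKA. Every FKA library lay far above every control library, and the library with the highest control value belonged to the batch with the lowest FKA value. Mean FPKM of MALAT1 was 7.05 ± 2.02 (SD, n = 3) in controls and 74.1 ± 9.13 (SD, n = 3) with FKA, a ratio of 10.5. The fitted log2 fold change of MALAT1 was 3.23 (SE 0.215), and the differences of log2 CPM (read counts scaled to the adjusted library size) within batches 1, 2 and 3 were 2.62, 3.34 and 3.84. The differences within batches thus spanned more than 1 log2 unit while pointing the same way. By FPKM, MALAT1 stood at rank 6010 of the 13531 tested genes in controls and at rank 605 with FKA. Its fold change was the one at rank 105 from the highest.

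NEAT1, the paraspeckle scaffold, differed less than MALAT1 but was more uniform among controls. By replicate, its reads numbered 8746, 9648 and 9182 without FKA, and 37073, 44857 and 48525 with it. Its FPKM was 11.4, 11.7 and 11.2 in the controls and 53.4, 65.8 and 64.3 with FKA. The controls were nearly equal, with a coefficient of variation of 2.21% in CPM against 30.5% for MALAT1, and FKA replicate 1 was the lowest treated library for both RNAs. Mean FPKM of NEAT1 was 11.4 ± 0.227 (SD, n = 3) in controls and 61.2 ± 6.80 (SD, n = 3) with FKA, a ratio of 5.35. The fitted log2 fold change of NEAT1 was 2.26 (SE 0.112), and the differences within batches 1, 2 and 3 were 2.03, 2.38 and 2.35 in log2 CPM. NEAT1 moved from rank 4392 to rank 772 of the tested genes by FPKM. The ratio of its count to its FPKM gives a length of 22743 bases, that of the long form, and the short form shares the 5′ part of it, so these values do not separate the 2 forms.

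NORAD, the Pumilio-binding RNA, was the most abundant of the 6 per length in every library. By replicate, its FPKM was 63.3, 48.6 and 44.7 in the controls and 92.2, 85.5 and 86.4 with FKA. All FKA libraries were higher than all controls, and control replicate 1 was again the highest control. Mean FPKM of NORAD was 52.2 ± 9.78 (SD, n = 3) in controls and 88.0 ± 3.60 (SD, n = 3) with FKA, a ratio of 1.69. Its fitted log2 fold change was 0.59 (SE 0.142), with differences in log2 CPM of 0.35, 0.70 and 0.78 within batches 1, 2 and 3. The reads behind these values numbered 8601 to 11411 in controls and 13696 to 15320 with FKA.

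OIP5-AS1, the RNA with the miR-7 site, was the only abundant member that was lower with FKA. By replicate, FPKM of OIP5-AS1 was 23.4, 25.4 and 21.7 in the controls and 17.8, 17.7 and 17.0 with FKA. The treated libraries were close to each other and all below the lowest control. Mean FPKM of OIP5-AS1 was 23.5 ± 1.84 (SD, n = 3) in controls and 17.5 ± 0.447 (SD, n = 3) with FKA. Its fitted log2 fold change was -0.58 (SE 0.0845), and the differences within batches were -0.59, -0.64 and -0.52 in log2 CPM. When library totals alone set the scale, without the trimmed-mean factors, the log2 fold change of OIP5-AS1 was -0.43.

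KCNQ1OT1, which acts on chromatin, was low per length, and MIAT, which acts in nuclear bodies, was close to the limit of detection. By replicate, KCNQ1OT1 had 83, 111 and 103 reads in the controls and 85, 138 and 195 reads with FKA, over a length of 91671 bases. Its FPKM was 0.0268, 0.0333 and 0.0312 in the controls and 0.0304, 0.0502 and 0.0641 with FKA. FKA replicate 1 lay within the control range, so the groups overlapped. Its log2 fold change was 0.51 (SE 0.281), and it was -0.02, 0.48 and 0.87 within batches 1, 2 and 3. MIAT had 5, 3 and 9 reads in the controls and 6, 10 and 8 reads with FKA. These groups overlap as well, and the ratio of summed reads, 24 with FKA against 17 in controls, was 1.43 per adjusted library size (scaled by trimmed means), with an exact 95% interval of 0.739 to 2.84. That interval covers counting error only, and no difference of MIAT was detectable at this depth.

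**Figure D1:**
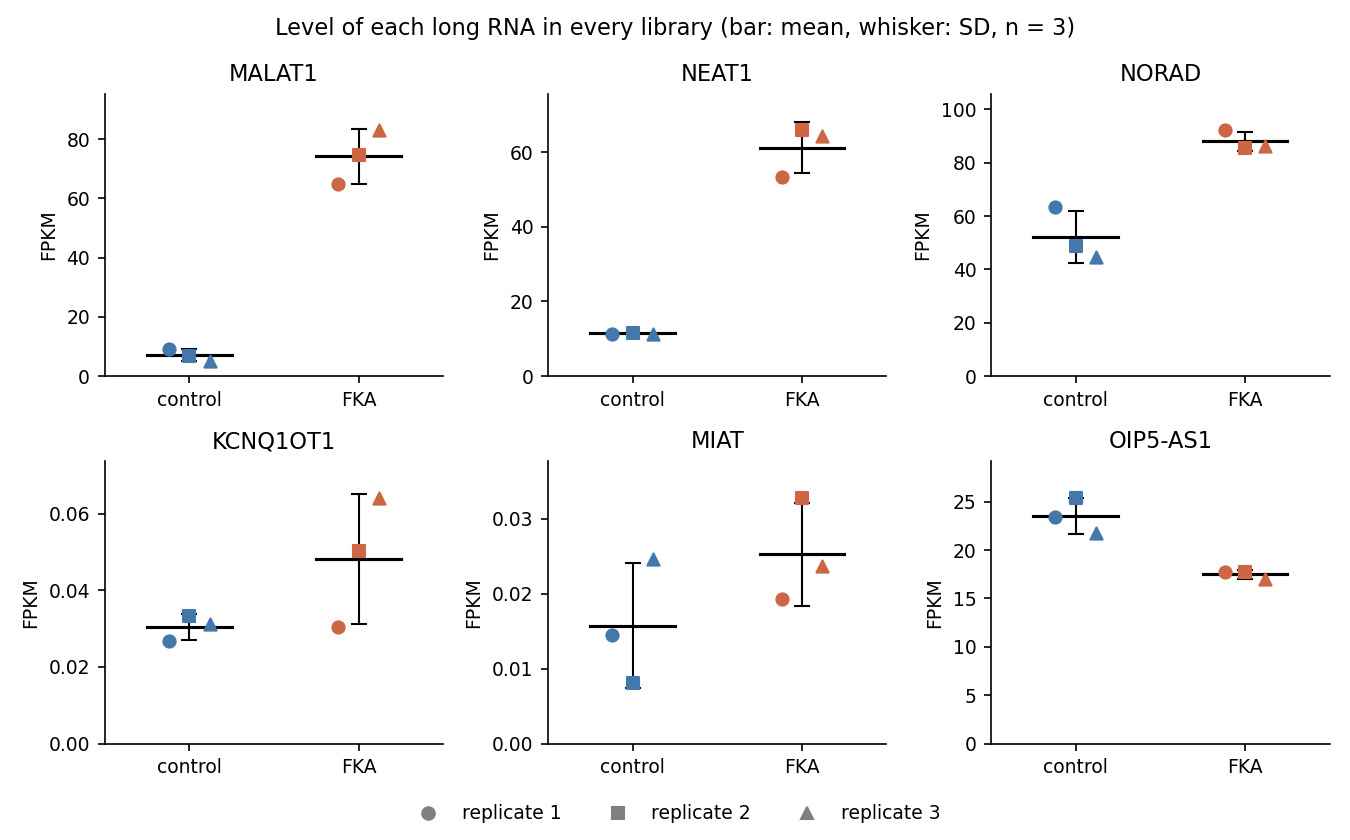
FPKM of each of the 6 long RNAs (vertical axes, 1 panel per RNA) in 3 control and 3 FKA libraries, with 1 point per library. The shape of a point gives the replicate, the bar the group mean and the whisker the SD. MALAT1 (5.15 to 9.17 in controls, 64.7 to 82.9 with FKA) and NEAT1 separate widely, NORAD and OIP5-AS1 separate by less, and KCNQ1OT1 and MIAT overlap.

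The order of the RNAs by level per length differed between the groups. In each control library the order by FPKM was NORAD, OIP5-AS1, NEAT1, MALAT1, KCNQ1OT1 and MIAT, and no neighbours in it overlapped over the 3 libraries. In each FKA library it was NORAD, MALAT1, NEAT1, OIP5-AS1, KCNQ1OT1 and MIAT. There, the MALAT1 range of 64.7 to 82.9 FPKM and the NEAT1 range of 53.4 to 65.8 FPKM overlapped, as did KCNQ1OT1 and MIAT, although MALAT1 exceeded NEAT1 within every FKA library. NORAD and MALAT1 came closest in FKA replicate 3, at 86.4 and 82.9 FPKM.

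Ratios of FPKM within a library do not depend on how libraries are scaled to each other. The ratio of NEAT1 to MALAT1 was 1.24, 1.71 and 2.18 in the controls, by replicate, and 0.825, 0.881 and 0.775 with FKA. It was above 1 in every control and below 1 in every treated library, and it varied more among the controls (1.71 ± 0.469, SD, n = 3) than with FKA (0.827 ± 0.0527, SD, n = 3). The ratio of NORAD to MALAT1 was 7.57 ± 0.977 in controls and 1.20 ± 0.198 with FKA (SD, n = 3 each). The ratio of OIP5-AS1 to NORAD was 0.459 ± 0.0794 in controls and 0.199 ± 0.00741 with FKA (SD, n = 3 each). The 6 RNAs together made up 0.0930%, 0.0859% and 0.0774% of all reads in the controls, by replicate, and 0.247%, 0.280% and 0.284% with FKA. NEAT1 held the largest part of that with FKA, at 0.139% ± 0.0155 (SD, n = 3) of all reads, and MALAT1 held 0.0651% ± 0.00801 (SD, n = 3).

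**Figure D2:**
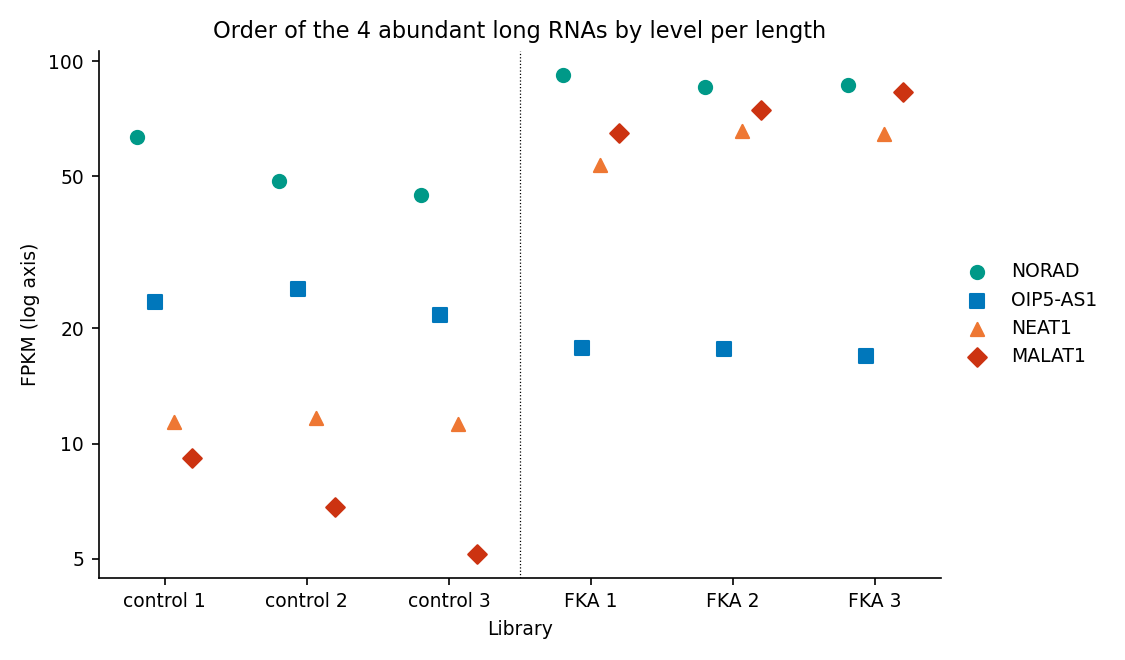
FPKM on a log axis (vertical) of NORAD, OIP5-AS1, NEAT1 and MALAT1 in each of the 6 libraries (horizontal), 1 symbol per RNA and library. MALAT1 is the lowest of the 4 in every control, at 5.15 to 9.17, and lies between NORAD and NEAT1 in every FKA library, while OIP5-AS1 is the lowest there.

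The libraries held 29971171 to 36362421 reads, and 17457 to 18409 genes had at least 1 read. The 13 mitochondrial protein-coding genes took 3.02% to 3.81% of reads in controls and 3.78% to 4.25% with FKA. Of these 13, edgeR's test called 0, beside 59.8% of all tested genes. The list of 11 myeloid and leukemia markers was present, with 4 genes that rose, 2 that fell and 5 that did not pass the test. Over all tested genes, 29.3% rose and 30.5% fell, so nothing particular to these markers is read from the counts. PTPRC (557 ± 89.8 and 683 ± 73.0 CPM, control and FKA, SD, n = 3 each), SPI1, CD33, FLT3 and LYZ were those not past the test. The macrophage genes CSF1R, ITGAM and CD68 rose, with log2 fold changes of 3.60, 1.51 and 1.09 (adjusted p = 9.46e-06, 0.000415 and 7.36e-05), and the granule enzyme MPO fell by 5.36 on the log2 scale (adjusted p = 6.94e-05). The homeobox genes MEIS1 and HOXA9 had values of 0.58 and -0.52 (adjusted p = 0.0434 and 0.0437), and each call was lost in 4 of the 6 fits without 1 library: MEIS1 without control replicates 1 or 3 or FKA replicates 1 or 2, HOXA9 without replicates 2 or 3 of either group. The HOXA9 call was also lost with library totals as the scale (adjusted p = 0.153), upper-quartile factors (0.0687) and a filter of 1 CPM (0.0510). It was lost as well with limma (0.150 to 0.178) and with the batch as a replicate block (0.0645). MEIS1 stayed called in all of these. Markers of other blood cells and of epithelium were read from 4 further lists. The list for T and natural killer cells summed to 22.2 to 26.6 FPKM in controls and 10.9 to 11.3 FPKM with FKA, nearly all of it NKG7 (log2 fold change -1.28, adjusted p = 4.34e-05), while the T cell marker CD3D had 1 read in each control and 0 in each FKA library. The B cell list summed to 2.70 to 3.07 and 1.00 to 1.63 FPKM, with PAX5 the most abundant (-1.54, adjusted p = 7.65e-05). The epithelial list summed to 11.1 to 12.6 and 8.30 to 12.4 FPKM, led by KRT18 (-0.55, adjusted p = 0.0190). Its other tested genes, KRT8 and EPCAM, had values of 0.24 and 0.46 (adjusted p = 0.424 and 0.655), and the list's median was 0.24. The megakaryocyte list summed to 0.102 to 0.807 and 0.142 to 0.362 FPKM, led by GP9 (-1.46, adjusted p = 0.0928). The part of these lists in the levels of the long RNAs was not tested.

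Reads of mesenchymal genes set FKA replicates 2 and 3 apart from the other libraries. The 10 listed markers of fibroblasts summed, by replicate, to 1.51, 1.38 and 0.108 FPKM without FKA and to 0.211, 8.80 and 8.06 FPKM with it, with FN1 (fibronectin) holding the most reads, 799 and 791, in the last 2 libraries. Of the 10, 5 were tested and 0 were called by edgeR, beside 59.8% of all tested genes, although the median log2 fold change of the 5 was 2.45. In FKA replicate 1, where this sum was 0.211 FPKM, MALAT1 stood at 64.7 FPKM and NEAT1 at 53.4 FPKM, above the highest controls of 9.17 and 11.7 FPKM. With FKA replicate 1 as the only treated library, which leaves the spread to be estimated from the 3 controls and assumes that the treated library varies like them, the log2 fold changes were 3.03 for MALAT1, 2.06 for NEAT1, 0.65 for NORAD, -0.57 for OIP5-AS1 and -0.17 for KCNQ1OT1. For KCNQ1OT1 the direction thus turned without FKA replicates 2 and 3. This fit was chosen after seeing the data and rests on a single treated library. How the values of MALAT1, NEAT1, KCNQ1OT1 and the other long RNAs relate to the mesenchymal reads was not tested.

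Genes that act with the 6 RNAs were read from 11 lists with 142 distinct genes, of which 132 were tested. In edgeR's quasi-likelihood test with Benjamini-Hochberg adjustment over all genes, 26 rose and 56 fell. Together these are 62.1% of the tested partners, near the 59.8% of all genes, with 19.7% higher and 42.4% lower beside 29.3% and 30.5% of all genes. When library totals alone set the scale, 34 rose and 48 fell, and the median log2 fold change of all tested genes shifted by 0.16 from its 0.01. In the fit with FKA replicate 1 as the only treated library, the median log2 fold change of the partners was -0.13, beside -0.21 with all libraries. Directions of called genes are not counted there, since its libraries also entered the fit that called them.

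The proteins that build paraspeckles on NEAT1 were measured only as mRNA. Of 9 genes for core proteins, 4 fell, 0 rose and 5 did not pass the test. So 44.4% were called, all lower, beside 59.8% of all tested genes called and 30.5% lower. The median log2 fold change was -0.31 beside 0.01 over all tested genes. With library totals as the scale 4 fell and 1, PSPC1, rose. DAZAP1 fell by 2.03 on the log2 scale (SE 0.123, adjusted p = 6.21e-06), from 321, 345 and 377 CPM in the controls to 94.7, 72.0 and 88.0 CPM with FKA. RBM14 fell by 0.96 (adjusted p = 0.00766), the chromatin remodeller SMARCA4 by 0.64 (adjusted p = 0.000606) and HNRNPK by 0.53 (adjusted p = 0.00123), all on the log2 scale. SFPQ and NONO, which bind NEAT1 along its length, had log2 fold changes of 0.06 (SE 0.10, adjusted p = 0.626) and -0.22 (SE 0.107, adjusted p = 0.101). PSPC1 had a log2 fold change of 0.06 (adjusted p = 0.576).

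Of 20 genes for further proteins found in paraspeckles, 11 fell, 1 rose and 8 did not pass, so 60.0% were called, near the 59.8% of all tested genes. By direction, 55% were lower and 5% higher, beside 30.5% and 29.3% of all tested genes. The median log2 fold change of the list was -0.30. RBMX fell by 1.76 (adjusted p = 1.18e-05), the cold-shock protein RBM3 by 1.35 (adjusted p = 0.00146), HNRNPA1 by 1.07 (adjusted p = 0.000521) and TAF15 by 0.96 (adjusted p = 9.84e-05) on the log2 scale. RBM4B was the member that rose, with a log2 fold change of 0.81 (adjusted p = 0.00112). HNRNPA1 had the highest FPKM of the list, with 3081, 2395 and 3413 CPM in controls and 1520, 1184 and 1536 CPM with FKA, though processed copies of HNRNPA1 and of RBMX could take some of their reads.

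Genes for proteins of nuclear speckles, where MALAT1 gathers, were split. Of 23 tested, 6 rose, 7 fell and 10 did not pass the test, so 56.5% were called, near the 59.8% of all tested genes. By direction, 26.1% were higher and 30.4% lower, beside 29.3% and 30.5% of all tested genes. The list's median log2 fold change was -0.07. SON and SRRM2, which form the core of the speckle, had log2 fold changes of -0.04 (SE 0.0913, adjusted p = 0.691) and -0.15 (SE 0.0939, adjusted p = 0.188). The splicing factors SRSF1 and SRSF2, which bind MALAT1, fell by 0.81 and 0.62 on the log2 scale (adjusted p = 0.000178 and 0.00347). The export adaptor ALYREF fell by 0.76 (adjusted p = 0.00159), while PNISR and the spliceosome subunit SF3B1 rose by 0.94 and 0.51 (adjusted p = 0.000105 and 0.00151). U2AF1 had the largest value, -2.89 (SE 0.738, adjusted p = 0.00832), but its reads can be split with a near-identical copy and its controls spread from 3.10 to 38.0 CPM, so it is uncertain. Without FKA replicates 2 and 3, the list's median was 0.02.

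The enzymes that cut and guard the 3′ ends printed above were measured as mRNA. Of 10 tested genes for subunits of RNase P and related factors, 7 fell, 1 rose and 2 did not pass, so 70.0% were lower beside 30.5% of all tested genes, with a median log2 fold change of -0.71. The RNase P subunits RPP40 and POP7 fell, with log2 fold changes of -1.59 and -1.45 (adjusted p = 0.000333 and 7.42e-05), as did POP1, the largest subunit, with -1.19. RPP25 fell as well (adjusted p = 0.00124). POP4 was the subunit that rose, with a log2 fold change of 0.35 (adjusted p = 0.00766), and POP5, with the highest FPKM of the list, stood at 0.07 (adjusted p = 0.494). ELAC2, which makes the second cut next to the tRNA-like piece, fell by 0.71 (SE 0.157, adjusted p = 0.00398), and METTL16, which binds the MALAT1 triple helix, fell by 0.70 (SE 0.145, adjusted p = 0.00277). METTL16 stood at 61.1, 44.1 and 50.1 CPM in controls and 34.1, 27.2 and 34.2 CPM with FKA, without overlap. With FKA replicate 1 as the only treated library, the list's median was -0.64.

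Among 20 genes of nuclear RNA decay, 9 fell, 2 rose and 9 did not pass, so 55.0% were called, near the 59.8% of all tested genes. By direction, 45% were lower and 10% higher, beside 30.5% and 29.3% of all tested genes. The list's median log2 fold change was -0.24, and with library totals as the scale 7 fell and 3 rose. The exosome subunits EXOSC5 and EXOSC8 fell by 2.01 and 1.84 on the log2 scale (adjusted p = 0.000556 and 1.01e-05), EXOSC9 by 1.21 and EXOSC2 by 1.01. MTREX, the helicase that feeds the nuclear exosome, fell by 0.67, and its partner ZCCHC8 by 0.77. ZFC3H1 and ZC3H3, which take part in the decay of polyadenylated nuclear RNA, rose by 0.62 and 0.59 (adjusted p = 0.00126 and 0.00519). The exonuclease XRN2 had a log2 fold change of -0.03 (adjusted p = 0.804).

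Of 8 genes for proteins that bind NORAD, 6 fell, 0 rose and 2 did not pass. So 75.0% were called, all lower, beside 59.8% of all tested genes called and 30.5% lower. The list's median log2 fold change was -0.48, and with library totals as the scale 5 fell and 1, CDC5L, rose. PUM2, which binds the elements printed above, fell by 0.25 on the log2 scale (SE 0.0935, adjusted p = 0.0441), but its adjusted p was 0.417 with library totals as the scale, 0.108 with upper-quartile factors, 0.0567 with a filter of 1 CPM, 0.369 to 0.383 with limma, and 0.0557 to 0.143 without any of control replicates 2 and 3 or FKA replicates 2 and 3. RBMX, which also binds NORAD, fell by 1.76, the ubiquitin ligase PRPF19 of the spliceosome fell by 0.71, and the topoisomerase TOP1, which has been placed in a complex with both, fell by 0.57 (SE 0.10, adjusted p = 0.00125).

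The imprinted domain around KCNQ1OT1 was mixed, with 5 of 11 tested genes higher, 2 lower and 4 not past the test. Thus 63.6% were called, near the 59.8% of all tested genes. By direction, 45.5% were higher and 18.2% lower, beside 29.3% and 30.5% of all tested genes. The list's median log2 fold change was 0.30. KCNQ1, the potassium channel gene in which KCNQ1OT1 lies in antisense direction, rose by 0.63 (SE 0.137, adjusted p = 0.00369), with 432, 439 and 420 reads in controls and 645, 557 and 778 reads with FKA. The use of strand in counting is not given in the sources used here, so reads of KCNQ1 and KCNQ1OT1 cannot be told apart where they overlap. SLC22A18, a transporter gene of the domain, rose by 2.59 (SE 0.251, adjusted p = 5.12e-05), from 1.54, 2.60 and 1.78 CPM to 12.7, 13.9 and 9.24 CPM. CDKN1C, the cell cycle inhibitor that KCNQ1OT1 is known to silence, did not pass the filter on low counts. The tetraspanin gene CD81 rose by 0.65 (adjusted p = 0.00466), and TRPM5, with few reads, had a value of 1.48 (adjusted p = 0.0168) whose call was lost without any of control replicates 2 and 3 and FKA replicates 1 and 2 (adjusted p = 0.0536 to 0.0624). OSBPL5 and NAP1L4 fell by 0.74 and 0.36 on the log2 scale (adjusted p = 0.000400 and 0.00404). Without FKA replicates 2 and 3, the list's median was 0.25.

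Of the 6 genes for chromatin enzymes linked to KCNQ1OT1, 4 fell, 1 rose and 1 did not pass, so 83.3% were called beside 59.8% of all tested genes. By direction, 66.7% were lower and 16.7% higher, beside 30.5% and 29.3% of all tested genes. The maintenance DNA methyltransferase DNMT1 fell by 1.65 on the log2 scale (adjusted p = 1.19e-05), from 415, 480 and 558 CPM to 157, 147 and 158 CPM. The Polycomb subunits EZH2, SUZ12 and EED fell by 1.48, 0.77 and 0.62 (EZH2 adjusted p = 0.000318). The histone H3 lysine methyltransferase EHMT2 rose by 0.29 (adjusted p = 0.0363), but with the batch as a replicate block its adjusted p was 0.0577, and leaving out any of control replicates 2 and 3 or FKA replicates 2 and 3 gave 0.0610 to 0.153.

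For MIAT and OIP5-AS1, 3 genes for partner proteins were tested and all 3 fell as mRNA, where 30.5% of all tested genes did. SF1, which MIAT binds through repeated sites, fell by 0.59 (SE 0.0859, adjusted p = 0.000438), at 433, 417 and 441 CPM in controls and 280, 280 and 300 CPM with FKA. ELAVL1 (HuR), which OIP5-AS1 binds, fell by 0.39 (SE 0.0926, adjusted p = 0.00554), and QKI by 0.31 (SE 0.112, adjusted p = 0.0390). With library totals as the scale 1 of the 3 was called: the adjusted p was 0.0655 for ELAVL1 and 0.30 for QKI. The QKI call was also lost in 5 of the 6 fits that left out 1 library, all but the one without control replicate 1.

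Transcripts that are known to keep introns and stay in the nucleus, as MALAT1 and NEAT1 do, were read as a further list. Of 20 tested, 10 rose, 1 fell and 9 did not pass, so 55.0% were called, near the 59.8% of all tested genes. By direction, 50% were higher and 5% lower, beside 29.3% and 30.5% of all tested genes. The list's median log2 fold change was 0.26, and with library totals as the scale 14 rose and 1 fell. RSRP1 rose by 1.43 (SE 0.114, adjusted p = 1.82e-05), from 107, 84.4 and 97.4 CPM to 237, 280 and 264 CPM. PNISR, RBM5 and the cyclin CCNL1 rose by 0.94, 0.82 and 0.69 (adjusted p = 0.000105, 0.000120 and 0.000309), while SRSF7 fell by 0.71 (adjusted p = 0.000916). DDX5, with the highest FPKM of the list, had a log2 fold change of 0.24 and an adjusted p of 0.0516, which was 0.00389 with library totals as the scale. The tables hold gene totals, so whether the reads came from spliced or intron-keeping forms was not measured. Without FKA replicates 2 and 3, the list's median was 0.32.

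Of 11 tested long non-coding RNAs outside the 6, 3 rose, 5 fell and 3 did not pass, so 72.7% were called beside 59.8% of all tested genes. By direction, 27.3% were higher and 45.5% lower, beside 29.3% and 30.5% of all tested genes. The list's median log2 fold change was -0.44, and with library totals as the scale 3 rose and 3 fell. LINC-PINT, a target of p53, rose by 2.56 (SE 0.305, adjusted p = 0.000142), and HOTAIRM1, a myeloid RNA of the HOXA cluster, rose by 1.94 (SE 0.232, adjusted p = 0.000146). PVT1, the neighbour of MYC, fell by 1.57, and EPB41L4A-AS1, which had the highest FPKM of the list, fell by 2.44 (SE 0.161, adjusted p = 8.32e-06), from 146, 114 and 109 CPM to 26.8, 18.8 and 22.5 CPM. Without FKA replicates 2 and 3, the list's median was -0.48.

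**Figure D3:**
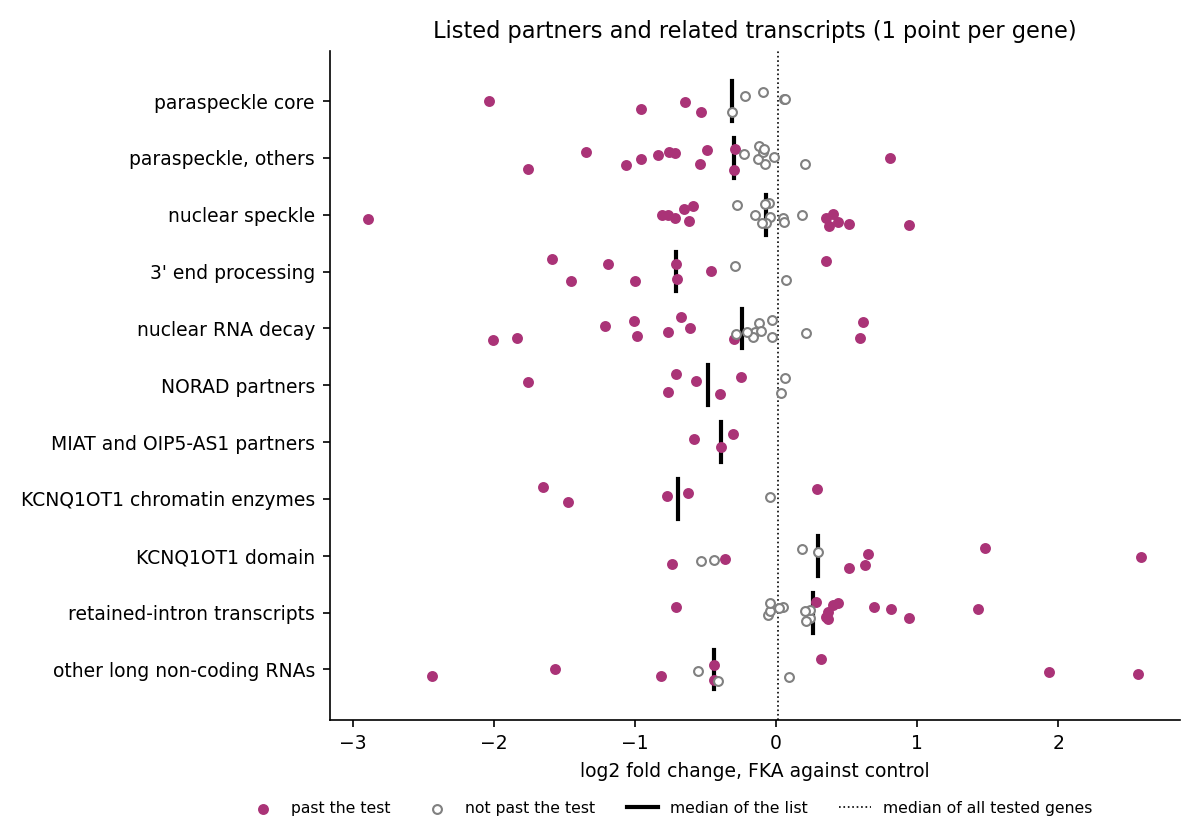
Log2 fold change, FKA against control (horizontal axis), of the tested genes in each of the 11 lists (rows), 1 point per gene, filled where edgeR's adjusted p was under 0.05, with a bar at the list's median and a dotted line at the median of all tested genes. The lists of 3′ end processing and NORAD partners have medians of -0.71 and -0.48, and the retained-intron list one of 0.26.

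The genes next to the 6 RNAs were counted as the 5 nearest protein-coding genes on each side in the RefSeq gene table, plus any gene that overlaps. This gave 52 genes, of which 45 were tested: 18 rose, 13 fell and 14 did not pass, so 68.9% were called beside 59.8% of all genes. By direction, 40% were higher and 28.9% lower, beside 29.3% and 30.5% of all tested genes. With library totals as the scale 22 rose and 12 fell. Without FKA replicates 2 and 3, the median log2 fold change of the tested neighbours was 0.18, beside 0.19 with all libraries. NEAT1 and MALAT1 lie next to each other on chromosome 11 and share all 10 of their neighbours. Of the 9 tested, 5 rose, 1 fell and 3 did not pass, and their median log2 fold change was 0.64, below the 2.26 of NEAT1 and the 3.23 of MALAT1. FRMD8, the next gene on the side of NEAT1, rose by 0.77 (SE 0.135, adjusted p = 0.00114), from 22.4, 23.5 and 17.5 CPM to 35.2, 39.4 and 33.7 CPM. ZNRD2 had a value of -0.65 (adjusted p = 0.0216), and that p was 0.0553 with library totals as the scale and 0.0540 to 0.0640 without control replicates 1 or 3 or FKA replicate 2. CDC42EP2, with 0.952 to 2.31 CPM, had a value of 0.80 (adjusted p = 0.0380), and its call was lost with the batch as a replicate block (adjusted p = 0.0554) and without any 1 library other than FKA replicate 1 (adjusted p = 0.0651 to 0.130).

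OIP5-AS1 overlaps OIP5, a gene of centromere assembly on the opposite strand, and the 2 differed in size of change. OIP5 fell by 4.07 on the log2 scale (SE 0.434, adjusted p = 8.14e-05), from 9.33, 20.4 and 16.1 CPM to 0.373, 0.938 and 1.38 CPM, whereas the fitted value of OIP5-AS1 was -0.58. The mean FPKM of OIP5 was 12.1 in controls and 0.788 with FKA. Without a stated use of strand, reads in the overlap of OIP5-AS1 and OIP5 cannot be told apart. Of the 9 tested genes around OIP5-AS1, 6 fell and 3 rose, among them the spindle protein gene NUSAP1 (-2.54, adjusted p = 0.000170) and the receptor kinase gene LTK (-4.02, adjusted p = 0.000109). LTK had 39, 38 and 27 reads in controls and 2, 2 and 2 with FKA, so its value rests on few reads. Over all tested genes, 29.3% rose and 30.5% fell. Around NORAD, 3 of 8 tested genes rose and 1 fell, with ROMO1, 345 kb away, at 1.16 (adjusted p = 5.62e-05) and SCAND1, 86 kb away, at 0.57 (adjusted p = 0.00288). Around MIAT, 3 of 9 rose and 3 fell. MN1, 1072 kb away, stood at 1.78, with 22, 30 and 23 reads in controls and 88, 86 and 79 with FKA. The low-count gene CRYBB1, 28 kb away, stood at -1.16 (adjusted p = 0.0251). The CRYBB1 call was lost without control replicate 2 or without any 1 FKA library, where its adjusted p was 0.0600 to 0.116.

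The genes whose profile over the 6 libraries was most like that of MALAT1 or NEAT1 were found by the root mean square difference of log2 CPM after each gene was centred on its own mean, over 10031 genes with a mean of at least 5 CPM. For MALAT1 the nearest were LOC107983998 (0.180), the zinc finger gene ZNF844 (0.196) and the histone gene H2AC6 (0.268). For NEAT1 they were BRD3OS (0.0519), which lies opposite BRD3, the metalloproteinase inhibitor gene TIMP2 (0.112) and HEXIM1 (0.114), an inhibitor of the elongation factor P-TEFb. NEAT1 stood at position 44 in the order of likeness to MALAT1, and MALAT1 at position 453 in the order of likeness to NEAT1, with a difference of 0.561 between them. HEXIM1 stood at 35.8, 42.4 and 37.1 CPM in controls and 155, 216 and 185 CPM with FKA. As the measure was taken over the same 6 libraries that chose MALAT1 and NEAT1, this likeness is a description of them.

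Promoter windows, 250 bases before to 50 after a start, were given by RefSeq (GRCh38.p14) for 4 of the 6 RNAs. They are printed for the 3 of these RNAs that differed between the groups, so that RNAs that were higher and one that was lower can be set beside each other. Capitals mark matches, on either strand, to any of 10 motifs searched: the E-box CACGTG, the antioxidant response element TGACNNNGC, AP-1 TGANTCA, the cyclic AMP element TGACGTC, FOXO GTAAACA, E2F TTTNGCGC, the GC box GGGCGG, the CCAAT box CCAAT, the TATA box TATAAA and ETS CCGGAAG. MALAT1 has 2 windows, for 2 start sites.
MALAT1 window 1, chr11:65497488-65497787, plus strand: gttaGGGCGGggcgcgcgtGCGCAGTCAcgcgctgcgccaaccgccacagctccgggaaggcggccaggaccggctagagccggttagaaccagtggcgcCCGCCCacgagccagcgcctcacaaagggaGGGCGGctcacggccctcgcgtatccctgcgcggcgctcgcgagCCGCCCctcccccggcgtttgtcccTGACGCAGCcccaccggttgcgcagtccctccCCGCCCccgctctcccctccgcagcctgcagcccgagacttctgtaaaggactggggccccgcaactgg
MALAT1 window 2, chr11:65498795-65499094, plus strand: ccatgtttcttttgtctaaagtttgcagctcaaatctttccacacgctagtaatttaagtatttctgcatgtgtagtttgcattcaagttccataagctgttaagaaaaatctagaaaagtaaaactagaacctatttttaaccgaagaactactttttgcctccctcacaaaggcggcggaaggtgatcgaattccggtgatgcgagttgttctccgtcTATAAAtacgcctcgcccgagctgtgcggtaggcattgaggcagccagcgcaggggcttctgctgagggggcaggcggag
NORAD, chr20:36050911-36051210, minus strand: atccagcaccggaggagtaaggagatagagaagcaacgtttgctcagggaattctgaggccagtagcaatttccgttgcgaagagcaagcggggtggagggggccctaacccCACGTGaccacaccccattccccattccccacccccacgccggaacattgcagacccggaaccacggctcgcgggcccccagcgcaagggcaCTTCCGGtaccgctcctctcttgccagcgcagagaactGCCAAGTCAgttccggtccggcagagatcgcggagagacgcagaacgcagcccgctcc
OIP5-AS1, chr15:41283740-41284039, plus strand: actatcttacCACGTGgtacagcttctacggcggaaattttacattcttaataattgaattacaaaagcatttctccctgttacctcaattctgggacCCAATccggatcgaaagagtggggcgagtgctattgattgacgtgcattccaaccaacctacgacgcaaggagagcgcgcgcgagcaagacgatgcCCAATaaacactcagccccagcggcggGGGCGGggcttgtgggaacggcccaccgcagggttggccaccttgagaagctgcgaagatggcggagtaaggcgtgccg
Window 1 of MALAT1 had a GC content of 73.7% and held 5 GC boxes, a motif found in 45.0% of all 35116 windows, and 2 copies of TGACNNNGC, found in 13.3%. Window 2 of MALAT1 had a GC content of 46.0% and a TATA box starting at -30, a motif found in 11.5% of windows. The E-box, found in 7.26% of windows, was present in NORAD at -138 and in OIP5-AS1 at -240, which differed in opposite directions between the groups. NORAD also held TGACNNNGC at -8 and the ETS letters at -46, the latter in 10.3% of windows, and OIP5-AS1 held 2 CCAAT boxes, in 34.6% of windows, and 1 GC box. No motif was shared by the windows of all 3 RNAs. The AP-1, cyclic AMP, FOXO and E2F letters, which 7.71%, 3.45%, 3.42% and 1.79% of windows hold, were in none of the 4 printed windows. A match describes the letters in these windows and not binding, which was not measured.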

How the data were processed

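Bulk RNA-seq of MV4;11 cells was analysed in 6 libraries. The authors deposited raw counts of reads for 21857 genes and, in a separate table, the FPKM of the same genes. Each deposited FPKM could be rebuilt from the count, the library's summed counts and a fixed length of the gene, which differed by at most 6.64e-05% between libraries for genes over 50 counts. How reads were aligned, counted and assigned to a strand is not given in the sources used here. GRCm38 and mm10, names of mouse builds, stand in the submitters' processing notes, whereas 20636 of the 21857 symbols (94.4%) matched human RefSeq genes. The implied lengths of MALAT1, NEAT1 and NORAD equal their human RefSeq lengths.

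Counts were tested with edgeR 4.0.16 (R 4.3.3), with trimmed-mean scaling, its default filter on low counts and the quasi-likelihood test with Benjamini-Hochberg adjustment over 13531 genes. The common biological coefficient of variation was 15.4%. SE is the log2 fold change divided by the square root of F. CPM uses the scaled library sizes. DESeq2 1.42.0 and limma 3.58.1 on log2(FPKM + 1) and log2(FPKM + 0.1) served as alternatives, beside other scalings and filters, a replicate block and fits without 1 library. The fit was tested on simulated data. The batch label pairs the libraries. Correlations of same-batch deviations were 0.05, 0.34 and -0.08 for batches 1, 2 and 3. Those between different batches ran from -0.27 to 0.22, so only batch 2 lay above that range. The RNAs and gene lists were chosen with earlier results of these data known. Named genes are, per list, up to 4 called genes of largest change, the most abundant gene and those moving against the rest, up to 2 called neighbours of each RNA, overlapping genes and the 3 genes most like MALAT1 and NEAT1. Further genes named for their role (SFPQ, NONO, SON and the like) were added with their values known. Some genes that the rule takes are not reported here.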

Additional observations from a re-analysis of the deposited data

How the results depend on the processing

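MALAT1, NEAT1, NORAD and OIP5-AS1 kept their direction in all 16 alternatives listed beforehand that gave them a value and 1 added one. Without 1 library, the log2 fold changes ran from 3.05 to 3.49 for MALAT1, 2.21 to 2.35 for NEAT1, 0.49 to 0.77 for NORAD, 0.24 to 0.75 for KCNQ1OT1, 0.15 to 1.01 for MIAT and -0.64 to -0.57 for OIP5-AS1, and the calls from 7090 to 8193 genes, 71 to 83 partners and 23 to 28 neighbours. With the replicate block, which pairs libraries by batch, they were 3.27, 2.26, 0.61, 0.46 and -0.58 for MALAT1, NEAT1, NORAD, KCNQ1OT1 and OIP5-AS1, with 8289 genes, 84 partners and 32 neighbours called. Among the named genes, the calls of EHMT2, CDC42EP2 (adjusted p = 0.0554) and HOXA9 (adjusted p = 0.0645) were lost with the block. Library totals gave 2.42 for NEAT1 and -0.43 for OIP5-AS1, with 60.3% of calls higher (4993 higher, 3282 lower) in place of 48.9%. Upper-quartile factors gave -0.52 for OIP5-AS1. limma on log2(FPKM + 0.1) gave 2.40 for NEAT1 and -0.42 for OIP5-AS1, and on log2(FPKM + 1) it gave -0.40 for OIP5-AS1, also among genes averaging 1 FPKM or more, and 0.025 for KCNQ1OT1, whose level is far below that pseudocount. Without FKA replicates 2 and 3, an alternative chosen after seeing the data that has fewer samples, 4619 genes (2020 higher, 2599 lower), 49 partners and 15 neighbours were called, NEAT1 stood at 2.06, KCNQ1OT1 at -0.17 and FN1 turned to -2.60. Where not stated, the cause was not tested. MIAT, with 3 to 10 reads, has no value in fits it did not enter.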
